A study of Mus musculus with 7 samples.

Results

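The Hox genes are the 39 protein-coding genes of the Hoxa, Hoxb, Hoxc and Hoxd clusters in the mouse, chosen by symbol from the 29267 genes of each table. No measured value entered the choice. They encode homeodomain transcription factors, which bind DNA through a shared domain and set regional identity along the embryo's body axis. Within a cluster the genes are numbered by paralog group, 1 to 13, from the end used toward the head to the end used toward the tail and the distal limb. Fibroblasts keep a pattern of Hox expression that reflects the body site they come from, whereas pluripotent stem cells hold most of the clusters silent under polycomb proteins.

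RNA was measured in 7 libraries, 1 per group, so there is no replicate error and no p-value. The cells came from OG2 mouse embryonic fibroblasts (MEFs), taken from mid-gestation embryos without heads and internal organs, which carry green fluorescent protein under the Oct4 promoter (Oct4GFP). All 4 libraries of the reprogramming culture, sorted on day 15, were infected with retroviruses for Oct4, Sox2, Klf4 and c-Myc. They are the Oct4GFP- and Oct4GFP+ fractions of cells kept in serum medium with leukaemia inhibitory factor (LIF) and vitamin C (mES-Oct4GFP-, mES-Oct4GFP+), and the same fractions from 5C medium, which holds N2, bFGF, LIF and vitamin C on a DMEM/F12 base (5C-Oct4GFP-, 5C-Oct4GFP+); these have passage 0. The other 3 libraries are 5C-Oct4GFP+ cells converted in naive medium, with LIF, the inhibitors CHIR99021 and PD0325901, and vitamin C, 5C-Oct4GFP+ cells converted in primed medium, with bFGF and activin A and then CHIR99021 and IWR1, and R1 embryonic stem cells in the primed state (R1 ESCs-primed), each at passage 20. By the study's methods, the primed R1 cells were started on MEF feeders in primed medium and later kept on plates coated with serum. There CHIR99021 and IWR1 took the place of bFGF and activin A for the R1 cells too. The methods do not say whether the converted 5C cells had feeders. Unsorted MEFs and naive R1 cells were not analysed here.

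The libraries held between 6108252 and 11496615 expected counts. Levels are given as TPM, RSEM's relative abundance corrected for gene length and summing to the same total in every library. A gene was called different when log2(TPM + 1) differed by at least 1 (2-fold) and either library reached 1 TPM. A ratio carries an exact 95% Clopper-Pearson interval from the counts, which covers counting error only. The TPM that 3 counts would give, the floor for a gene without counts, lay between 0.156 and 1.31 across members and libraries. In bulk RNA, fewer cells of a type and less RNA per cell cannot be told apart. The labels name fibroblasts as the source of all 6 OG2 libraries, but the summed TPM of 10 fibroblast markers was 875.6 and 357.4 in the Oct4GFP- fractions of mES and 5C culture, and between 9.3 and 15 in mES-Oct4GFP+, 5C-Oct4GFP+ and the naive cells. It was 85.2 in the primed 5C cells and 247.6 in R1 ESCs-primed. Of the 10 markers, 10, 9, 5, 4, 5, 10 and 10 reached 1 TPM in mES-Oct4GFP-, 5C-Oct4GFP-, mES-Oct4GFP+, 5C-Oct4GFP+, the naive, the primed 5C and the R1 cells.

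Hox RNA was highest in the Oct4GFP- cells. The 39 genes summed to 225.2 TPM in the mES-Oct4GFP- library and 301.3 TPM in the 5C-Oct4GFP- library, against 105.3 and 24.9 TPM in the Oct4GFP+ fractions of mES and 5C culture. It was 52.6 in the naive cells, 10.4 in the primed 5C cells and 58.8 in R1 ESCs-primed. At least 1 TPM was reached by 30 and 34 members in the Oct4GFP- fractions of mES and 5C culture, 18 and 10 in the Oct4GFP+ fractions, 8 in the naive cells, 2 in the primed 5C cells and 23 in R1 ESCs-primed. For comparison, between 45.6% and 51.0% of all genes reached that level in each library. The library with a member's highest level was 5C-Oct4GFP- for 23 genes, mES-Oct4GFP- for 11 and mES-Oct4GFP+ for 5. The sums rest on 101.59 to 2328.8 expected counts per library, fewest in the primed 5C cells and most in 5C-Oct4GFP-. The sum of the fibroblast markers did not follow the same order in the Oct4GFP- pair, being lower in 5C-Oct4GFP-, where the Hox sum was higher. Of the 10 markers, 8 were called lower and 1 higher in 5C-Oct4GFP-, beside 10.1% and 9.68% of all genes tested. The higher one was Thy1, with 53.29 TPM against 8.73. The part of fibroblast RNA in the Hox sums was not tested.

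**Figure D1:**
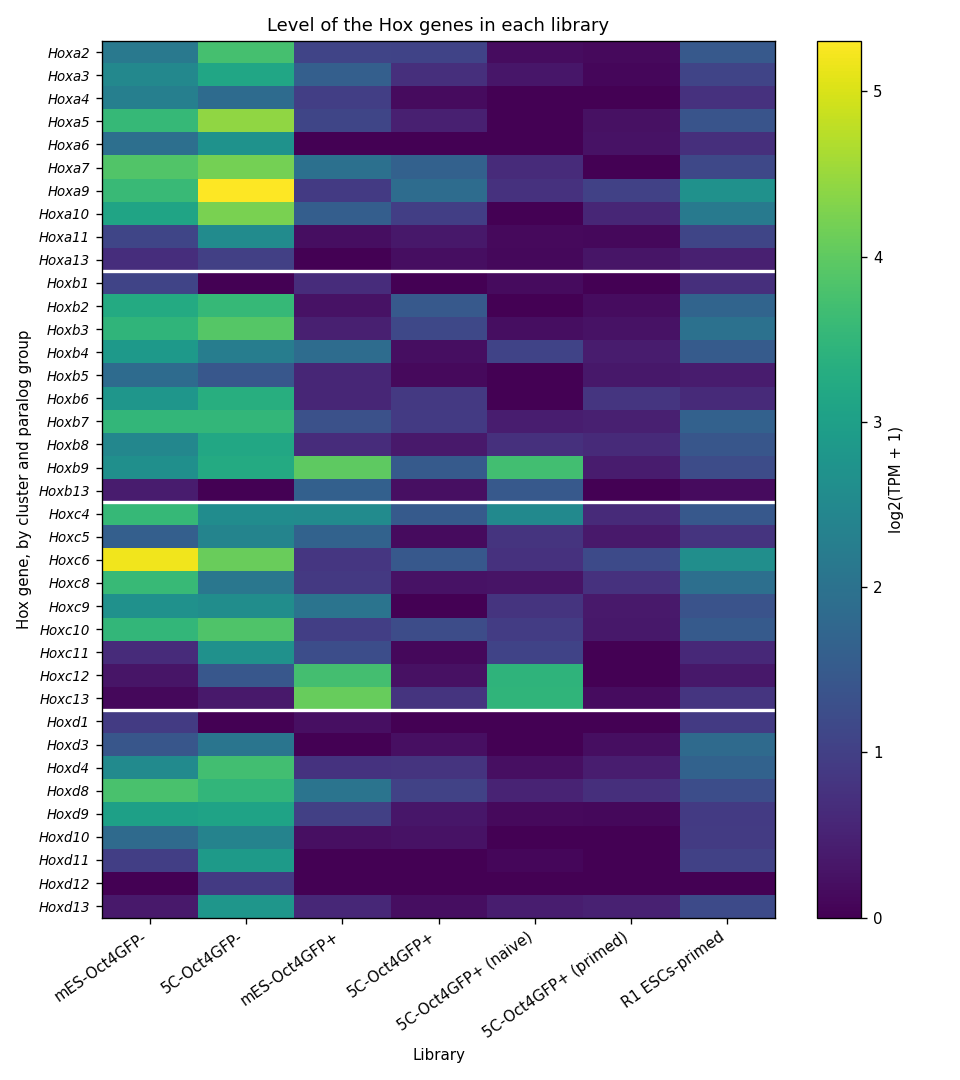
Level of the Hox genes reported here (rows, by cluster and paralog group, clusters parted by white lines) in each library (columns, 1 per group), as log2(TPM + 1). Both Oct4GFP- columns are filled over much of the 4 clusters but stay dark at some ends, such as Hoxb13 and Hoxc13. The columns of mES-Oct4GFP+ and the naive cells share bright cells at Hoxb9, Hoxc12 and Hoxc13.

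In the following, the 7 values of a gene are TPM in the order mES-Oct4GFP-, 5C-Oct4GFP-, mES-Oct4GFP+, 5C-Oct4GFP+, naive, primed and R1 ESCs-primed. The Hoxa cluster lies on the minus strand of chromosome 6 with 11 genes. Coordinates are those of GRCm38. Its anterior genes pattern the hindbrain and neck. Hoxa2, which specifies the second pharyngeal arch, read 3.45, 12.39, 1.12, 1.09, 0.13, 0.10 and 1.78. Hoxa3, needed for the thymus and parathyroid, read 4.60, 7.84, 2.03, 0.63, 0.25, 0.06 and 1.14. Both were highest in 5C-Oct4GFP-. Among the middle genes, Hoxa5, which acts in the lung and the cervical skeleton, read 10.81, 20.52, 1.17, 0.39, 0.00, 0.18 and 1.59. Hoxa7 read 13.53, 17.31, 2.88, 2.13, 0.58, 0.00 and 1.23. The same order held for these genes, with Oct4GFP- cells above Oct4GFP+ cells in either medium.

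The posterior Hoxa genes act in the limbs, the urogenital tract and, for Hoxa9 and Hoxa10, in blood progenitors. Hoxa9 read 11.06, 38.59, 0.87, 2.69, 0.70, 1.05 and 5.47, and its value in 5C-Oct4GFP- was the highest of any Hox gene in any library. Hoxa10 read 7.58, 18.01, 2.02, 0.99, 0.00, 0.49 and 3.55. Hoxa11, which patterns the forearm and the uterus, read 1.17, 4.94, 0.15, 0.26, 0.10, 0.08 and 1.17. Hoxa9 and Hoxa10 were thus low in mES-Oct4GFP+ and the naive cells and were present in R1 ESCs-primed. Hoxa11 overlaps Hoxa11os on the other strand, and the library kit does not keep strand, so reads from the stretch they share cannot be told apart.

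The Hoxb cluster lies on the plus strand of chromosome 11 (96194316 to 96368256) with 10 genes. Hoxb2, a hindbrain gene, read 8.46, 10.74, 0.19, 1.81, 0.00, 0.13 and 2.28. Hoxb3 read 10.04, 14.01, 0.39, 1.22, 0.14, 0.19 and 2.95. Hoxb4, known for expanding blood stem cells when forced on, read 6.36, 3.76, 2.65, 0.14, 1.10, 0.32 and 1.88. Hoxb2 and Hoxb3 were low in mES-Oct4GFP+ and the naive cells, where Hoxb4 was above 1. Of the trunk genes, Hoxb7 read 10.42, 10.39, 1.48, 0.86, 0.35, 0.39 and 2.13. Hoxb8 read 4.52, 8.14, 0.59, 0.29, 0.66, 0.54 and 1.66. At the tail end, Hoxb9 read 5.28, 8.53, 14.80, 1.83, 11.98, 0.32 and 1.34, and Hoxb13, a gene of the tail bud and prostate that is separated from Hoxb9 by a long gap in the cluster, read 0.32, 0.00, 2.11, 0.16, 1.79, 0.00 and 0.12. Hoxb9 and Hoxb13 both had their highest level in mES-Oct4GFP+ and their second highest in the naive cells, unlike the trunk genes beside them.

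The Hoxc cluster, on the plus strand of chromosome 15 (102921103 to 103036852), has 9 genes and none of paralog groups 1 to 3. Hoxc4 read 10.76, 4.96, 4.94, 1.82, 4.75, 0.56 and 1.75. Hoxc5 read 2.05, 4.25, 2.16, 0.12, 0.73, 0.29 and 0.73. Hoxc6, a gene of the thoracic region, read 35.44, 16.04, 0.80, 1.74, 0.70, 1.27 and 5.17 and was the highest Hox gene of mES-Oct4GFP-. The Oct4GFP- cells held the top value for each of these genes. Hoxc8, which acts in the thoracic skeleton and motor neurons, read 10.94, 3.32, 0.84, 0.20, 0.22, 0.69 and 2.85. Hoxc9 read 5.42, 5.07, 3.13, 0.00, 0.74, 0.29 and 1.58. Hoxc10, of the lumbar region and hindlimb, read 10.36, 13.41, 0.98, 1.34, 0.92, 0.26 and 1.84. Hoxc8 and Hoxc9 were highest in the Oct4GFP- cells of mES culture and Hoxc10 in those of 5C culture. Hoxc11 read 0.58, 5.41, 1.39, 0.09, 1.09, 0.00 and 0.53. Hoxc12 read 0.24, 1.71, 12.23, 0.18, 9.95, 0.00 and 0.27. Hoxc13, which controls hair and nail keratins, read 0.09, 0.29, 15.72, 0.73, 10.02, 0.13 and 0.76. For Hoxc12 and Hoxc13, mES-Oct4GFP+ and the naive cells stood above every other library.

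The Hoxd cluster lies on the plus strand of chromosome 2 (74668310 to 74765142) with 9 genes. Hoxd3 read 1.68, 3.19, 0.00, 0.16, 0.00, 0.14 and 2.55. Hoxd4 read 4.79, 12.04, 0.71, 0.74, 0.17, 0.34 and 2.20. Hoxd8 read 12.76, 10.34, 3.14, 1.08, 0.44, 0.64 and 1.40. Hoxd4 and Hoxd8 were highest in the Oct4GFP- libraries, and Hoxd3 was highest in 5C-Oct4GFP-, followed by R1 ESCs-primed. Hoxd9 read 7.14, 7.50, 1.02, 0.25, 0.10, 0.08 and 0.88. The digit genes of the cluster include Hoxd11, which read 0.97, 6.40, 0.00, 0.00, 0.07, 0.00 and 1.05, and Hoxd13, mutated in synpolydactyly, which read 0.28, 5.93, 0.50, 0.15, 0.35, 0.40 and 1.29. Both had a TPM under 1 in mES-Oct4GFP- and above 5 in 5C-Oct4GFP-. Hoxd had the lowest sum of the 4 clusters in each of the 7 libraries, with 31.09, 50.43, 5.71, 2.58, 1.13, 1.60 and 11.13 TPM in the same order.

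The clusters took different shares of the Hox sum. Hoxa held 28.0%, 43.2%, 31.9%, 35.6%, 11.8%, 23.0% and 31.2% of it in the same order of libraries. Hoxc held 33.7%, 18.1%, 40.1%, 24.9%, 55.4%, 33.6% and 26.3%. Hoxa was the largest cluster in 5C-Oct4GFP-, 5C-Oct4GFP+ and R1 ESCs-primed. Hoxc was the largest in mES-Oct4GFP-, mES-Oct4GFP+, the naive and the primed 5C cells. Hoxa was low in the naive cells. Paralog groups 12 and 13 had their highest sums in mES-Oct4GFP+, with 12.23 and 18.33 TPM. In the naive cells these sums were 9.95 and 12.25 TPM, and in the other 5 libraries they reached at most 2.57 and 7.23 TPM.

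A further 8 genes, outside the naming rule, are named here after their values were seen. Hoxa4, Hoxa6, Hoxb5, Hoxb6 and Hoxd10 had a TPM of at least 1 in both Oct4GFP- libraries and in no other. Hoxa13 passed 1 only in 5C-Oct4GFP- (1.01 TPM). Hoxd1 stayed under 1 in every library. Hoxd12 had 9 counts in 5C-Oct4GFP- (0.86 TPM) and none in the other libraries.

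The 4 genes of paralog group 9 differed in pattern. Hoxa9, Hoxc9 and Hoxd9 had their highest level in an Oct4GFP- library, and Hoxb9 in mES-Oct4GFP+. The 180-base homeobox, the coding stretch for the DNA-binding domain, of Hoxb9 and Hoxc9, read from the GENCODE M21 transcripts, is printed to show how far copies with different peaks differ, with capitals for bases of Hoxc9 that differ from Hoxb9. The stretches lie in exon 2 of 2 at chr11:96274659-96274838 (plus strand, Hoxb9) and exon 3 of 3 at chr15:102983930-102984109 (plus strand, Hoxc9).
Hoxb9: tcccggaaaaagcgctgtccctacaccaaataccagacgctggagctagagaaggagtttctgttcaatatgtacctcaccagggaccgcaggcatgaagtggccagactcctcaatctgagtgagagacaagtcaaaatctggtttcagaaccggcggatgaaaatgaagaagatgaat
Hoxc9: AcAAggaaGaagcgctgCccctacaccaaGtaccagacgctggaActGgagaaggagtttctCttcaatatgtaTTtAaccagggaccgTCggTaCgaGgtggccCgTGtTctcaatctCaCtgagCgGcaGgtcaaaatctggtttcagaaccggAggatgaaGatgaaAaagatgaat

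Hoxc9 differed from Hoxb9 at 29 of the 180 bases. Across the family, pairs of the same paralog group were between 67.2% and 93.9% identical over the homeobox (median 80.6%), and pairs of the same cluster from other groups had a median of 61.7%. Hoxd4, which gave more than 1 homeobox sequence, was left out of these identities. Reads averaged about 74 bases by the difference between gene length and effective length. No stretch of 74 bases was shared between paralogs of different clusters. Of the 39 members, 23 shared no such stretch with another gene, and the 4 that shared one with another Hox gene were neighbours whose gene models overlap (Hoxc5 with Hoxc10, Hoxd3 with Hoxd4). Another 12 shared stretches with genes outside the family, mostly antisense or read-through models, or in Hoxd11 stretches found in many unrelated genes, with the highest shares at Hoxb3 (50.5% of its stretches, with Hoxb3os), Hoxa11 (32%, with Hoxa11os), Hoxb2 (25.3%) and Hoxa3 (22.6%). Levels of these genes rest on how the reads were divided.

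**Figure D2:**
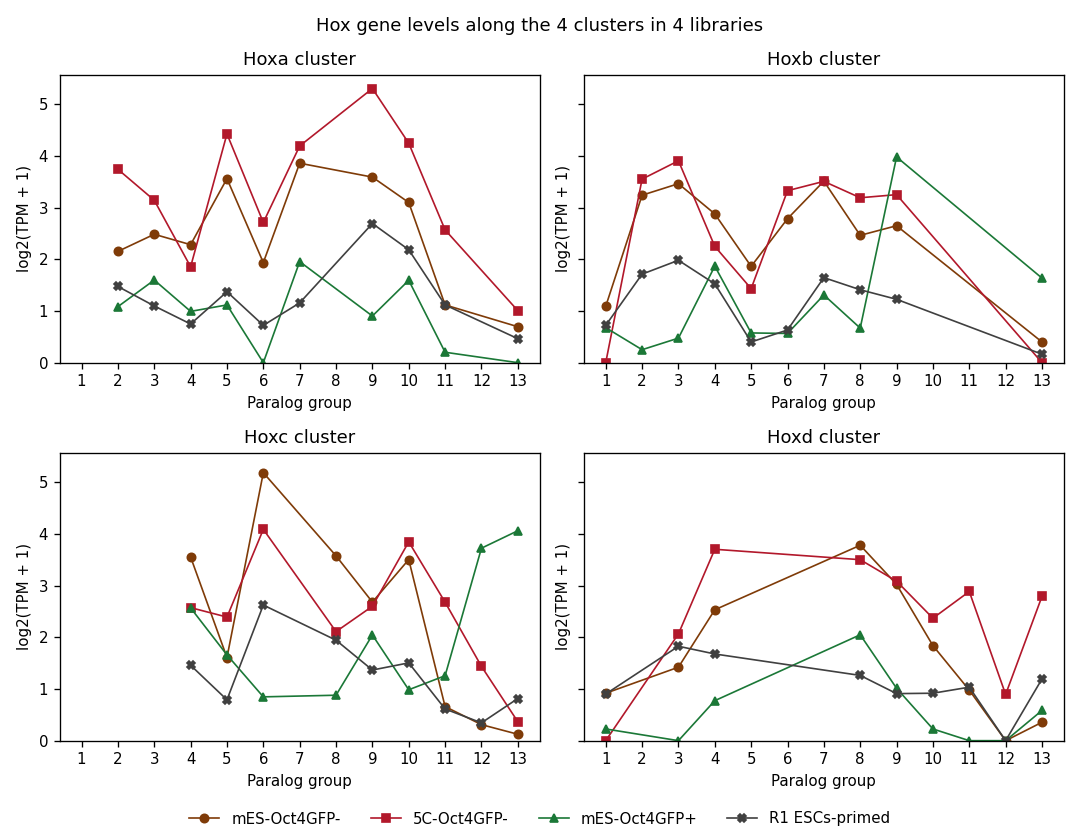
Level of each Hox gene, as log2(TPM + 1), against its paralog group in the 4 clusters, for 4 of the 7 libraries (1 library per line). The lines for mES-Oct4GFP- and 5C-Oct4GFP- part at Hoxa2, Hoxa9, Hoxc6, Hoxc8, Hoxc11, Hoxd4, Hoxd11 and Hoxd13 and lie close at Hoxc9, Hoxd9 and Hoxa13, and mES-Oct4GFP+ peaks at Hoxb9 and Hoxc13.

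Between the fractions of mES culture, Hox genes were higher in the cells that had not activated the Oct4 reporter. Of 34 members that reached 1 TPM in either fraction, 22 were called higher in mES-Oct4GFP- (at least 2-fold) and 5 lower, beside 28.8% and 17.9% of all genes tested. With a minimum of 5 TPM, 14 were higher. The median difference over the 39 members was 1.29 on log2(TPM + 1), against 0.15 over all genes tested. Hoxc6 showed the largest difference upward on this scale (4.34), with a ratio of 44.3 (95% interval 17.1 to 165.0), from 208 counts against 4. By paralog group, 13 of the 15 genes of groups 4 to 8 were higher and none lower, whereas of groups 9 to 13, 5 were higher and 4 lower. The lower genes included Hoxb9, Hoxb13, Hoxc12 and Hoxc13. For Hoxc13 the level in mES-Oct4GFP+ was 175.0-fold that in mES-Oct4GFP- (29.2 to 6590.0), from 125 counts against 1. For Hoxb9 it was 2.8-fold (2.0 to 3.98). The counting interval lay wholly past 2-fold for 15 of the higher genes and 3 of the lower. Fibroblast markers summed to 875.6 TPM against 15 and pluripotency markers to 65.7 against 5756.7, and their part in the Hox difference was not tested.

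Between the fractions of 5C culture the difference ran one way. Of 34 members tested, 32 were called higher in the Oct4GFP- fraction and 0 lower, beside 22.6% and 8.45% of all genes tested. The median difference was 2.44 on log2(TPM + 1), against 0.25 over all genes. All 15 genes of groups 4 to 8 were higher. Hoxa5, with 158 counts against 4, had a ratio of 52.6 (20.2 to 196.0), and Hoxa9, with 275 counts against 17, a ratio of 14.3 (8.78 to 24.9). Hoxd11 had no counts in 5C-Oct4GFP+ and was at least 26.4-fold higher in 5C-Oct4GFP- against the floor. For 31 members the interval lay wholly above 2-fold. Hoxa13 (1.01 and 0.14 TPM) was tested and not called. Fibroblast markers moved in the same direction, 357.4 TPM in sum against 12.5, and pluripotency markers the other way, 319.3 against 6196.9. The part of the cell mixture in the Hox difference was not tested.

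Between the Oct4GFP- cells of the 2 media, single Hox genes differed, more of them higher than lower with 5C medium. Of 35 members tested, the fraction from 5C medium had 9 at a level 2-fold or more above mES-Oct4GFP- and 3 below, beside 9.68% and 10.1% of all genes tested. The median difference was 0.44 on log2(TPM + 1), against 0.03 over all genes. The 9 higher genes were Hoxa2, Hoxa9, Hoxa10, Hoxa11, Hoxc11, Hoxc12, Hoxd4, Hoxd11 and Hoxd13, of which 7 belong to paralog groups 9 to 13. Of the 13 members of those groups that were tested, the other 6 were not called. No test compared the regions of the clusters. Hoxa9 had a ratio of 3.49 (2.72 to 4.51) and Hoxa10 of 2.38 (1.75 to 3.27). Hoxd13 had 61 counts against 3, a ratio of 21.2 (6.86 to 105.0), and Hoxd11 a ratio of 6.6 (3.05 to 16.1). Hoxc11 had a ratio of 9.33 (3.7 to 30.0). The ratio of Hoxc12, 7.12, rested on 7 counts against 1 and its interval (0.93 to 326.0) included 1. Hoxa2 (3.59, 2.3 to 6.02) and Hoxa11 (4.22, 2.22 to 9.86) had intervals wholly above 2, and Hoxd4 (2.51, 1.68 to 3.84) had one above 1.

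The 3 lower genes were Hoxb1, Hoxc6 and Hoxc8. Hoxc6 in mES-Oct4GFP- was 2.21-fold its level in 5C-Oct4GFP- (1.73 to 2.85), and Hoxc8 3.3-fold (2.12 to 5.26). Hoxb1, a hindbrain gene, read 1.13, 0.00, 0.60, 0.00, 0.11, 0.00 and 0.65. It had 10 counts in mES-Oct4GFP- and none in 5C-Oct4GFP-, where it was at least 2.19-fold lower against the floor. In sum, groups 9 to 13 held 121.83 TPM in 5C-Oct4GFP- and 53.69 in mES-Oct4GFP-, or 40.4% and 23.8% of the Hox total. Groups 4 to 8 held 130.00 and 137.62 TPM. The Hoxa sum was 130.12 against 63.16 TPM, and the Hoxc sum 54.46 against 75.88. Position and cell type markers stood beside these values. The list of 8 limb and body position genes summed to 61.2 TPM in the 5C fraction and 51.3 in the mES fraction, with 7 of 8 at 1 TPM or more in both, and 4 keratinocyte markers to 90.8 and 79.2. Single genes of these lists, named after their values were seen, lay further apart. The limb gene Tbx4 read 5.56 TPM with 5C medium and 1.20 with mES medium, and Tbx15 read 33.47 and 14.73. Lower with 5C medium were Hand2, with 2.93 and 14.05, and Pitx1, with 4.33 and 8.77. The epidermal keratins Krt5 and Krt14 went opposite ways, with 43.81 and 2.41 for Krt5 and 44.83 and 75.35 for Krt14. Fibroblast markers summed to 357.4 and 875.6 TPM. Their part in the Hox differences was not tested.

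**Figure D3:**
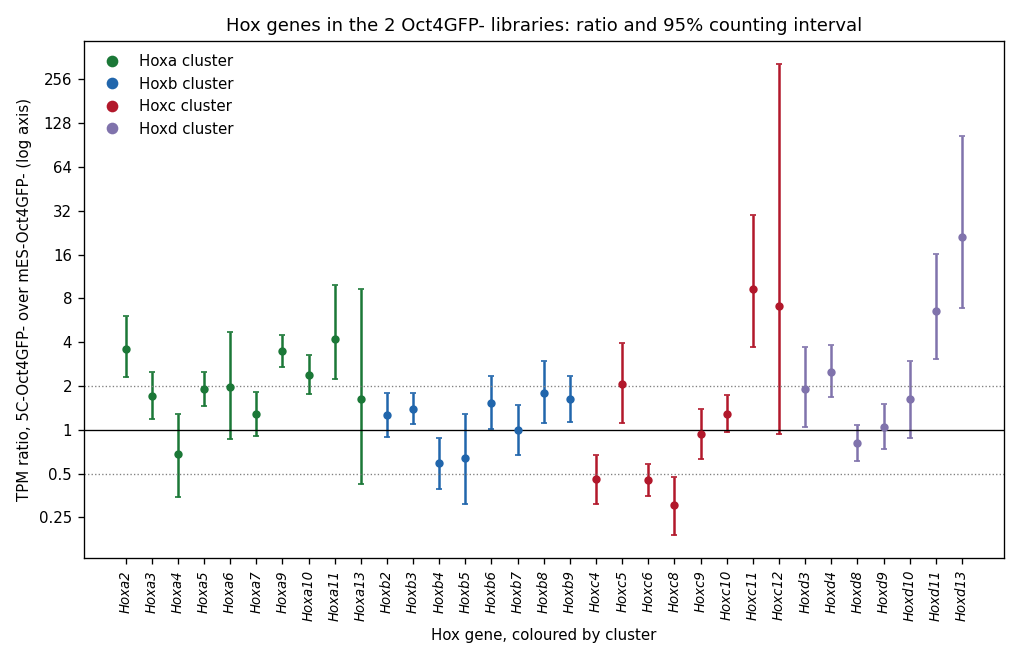
Ratio of TPM in 5C-Oct4GFP- over mES-Oct4GFP- (log axis) for 33 Hox genes that reached 1 TPM on either side and had counts on both, coloured by cluster. Points are single libraries and bars the exact 95% counting interval; dotted lines mark 2-fold. Hoxa2, Hoxa9, Hoxa11, Hoxc11, Hoxd11 and Hoxd13 lie above 2 with their whole bars, and Hoxc8 lies below 0.5.

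Of the promoters, 24 windows for 22 Hox genes were at hand from RefSeq (GRCm38.p6), each 300 bases around a start site. The 250 bases before the start are printed for the highest gene of the posterior group, Hoxa9 (chr6:52227371-52227620, minus strand), for the gene with the largest ratio between the Oct4GFP- libraries, Hoxd13 (chr2:74667975-74668224, plus strand), and for Hoxc4 (chr15:103034145-103034394, plus strand), which was among the genes higher in the naive cells. Capitals mark CG dinucleotides.
Hoxa9: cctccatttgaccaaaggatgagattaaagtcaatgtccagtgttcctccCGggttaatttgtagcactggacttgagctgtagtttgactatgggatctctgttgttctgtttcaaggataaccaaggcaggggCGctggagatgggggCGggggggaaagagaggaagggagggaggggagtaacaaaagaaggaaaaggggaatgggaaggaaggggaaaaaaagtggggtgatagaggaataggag
Hoxd13: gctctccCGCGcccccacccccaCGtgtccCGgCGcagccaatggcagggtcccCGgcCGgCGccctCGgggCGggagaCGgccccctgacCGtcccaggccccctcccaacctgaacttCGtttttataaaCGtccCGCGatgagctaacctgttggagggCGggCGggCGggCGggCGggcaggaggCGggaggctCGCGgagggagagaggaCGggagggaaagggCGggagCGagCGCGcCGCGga
Hoxc4: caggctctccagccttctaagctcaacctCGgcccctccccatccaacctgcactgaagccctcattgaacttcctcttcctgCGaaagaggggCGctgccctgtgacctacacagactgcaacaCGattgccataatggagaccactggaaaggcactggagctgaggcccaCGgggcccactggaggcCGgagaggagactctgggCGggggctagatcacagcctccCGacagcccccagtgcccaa

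These stretches held 3, 31 and 8 CG dinucleotides. The 24 windows had a median of 14.5 CG dinucleotides (4 to 45), against a median of 7 over 32851 windows of all genes. On either strand, TATAAA was found in 16.7% of the Hox windows and 13.6% of all windows, TTTATG, a core bound by Cdx proteins, in 20.8% and 11.9%, and TGATTNAT, a joint Pbx and Hox site, in 8.33% and 3.22%. A repeat of AGGTCA with 5 bases between the copies was in 0 of the 24 windows and in 3 of all. TTTATG shares the letters TTTAT with the reverse complement of TATAAA. Windows of Hoxb9, Hoxb13, Hoxc12 and Hoxc13 were not used here.

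Among cells that had activated Oct4GFP, Hox genes were lower in 5C medium. Of 23 members tested, the 5C fraction had 10 called lower and 1 called higher than mES-Oct4GFP+, beside 13.5% and 13.7% of all genes tested. With a minimum of 5 TPM, 4 were lower and 0 higher. The median difference was -0.42 on log2(TPM + 1), against -0.06 over all genes. The lower genes included Hoxb4, Hoxb9, Hoxb13 and the Hoxc genes 4, 5, 9, 11, 12 and 13, so that 6 of the 10 lie in the Hoxc cluster. Hoxb9 in mES-Oct4GFP+ was 8.09-fold its level in 5C-Oct4GFP+ (5.11 to 13.3) and Hoxc13 21.5-fold (11.3 to 45.8). Hoxc12 rested on 39 counts against 1 (67.9-fold, 11.3 to 2710.0). Hoxb2 was the gene higher in 5C-Oct4GFP+, with 16.09 counts against 1.

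Conversion of the 5C-Oct4GFP+ cells in naive medium went with higher levels of 6 Hox genes. The naive cells were at passage 20 and 5C-Oct4GFP+ at passage 0, so medium and passage cannot be told apart. Of 16 members tested, 6 were called higher in the naive cells, Hoxb9, Hoxb13, Hoxc4, Hoxc12 and Hoxc13 among them, and 2, Hoxa9 and Hoxb2, lower, beside 10.0% and 17.5% of all genes tested. The median difference was -0.14 on log2(TPM + 1), against -0.1 over all genes, and it was 0.02 with members at 0 counts set to the floor. The Hox sum was 52.6 TPM in the naive cells and 24.9 in 5C-Oct4GFP+. With a minimum of 5 TPM, 3 were higher and 0 lower, and with FPKM 0 were lower. Hoxb9 had 128 counts against 23, a ratio of 6.55 (4.17 to 10.7). Hoxc13 had 113 counts against 10, a ratio of 13.7 (7.16 to 29.3). Hoxc12 had 45 counts against 1 (55.3, 9.28 to 2200.0), and Hoxb13 18 against 2 (11.2, 2.6 to 96.7). Hoxc4 had a ratio of 2.61 (1.5 to 4.69). Hoxb2 had no counts in the naive cells and was at least 6.58-fold lower against the floor. The comparison shares the 5C-Oct4GFP+ library with that between the Oct4GFP+ fractions.

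Groups 9 to 13 made up 72.1% of the Hox sum in the naive cells and 52.3% in mES-Oct4GFP+, against 23.8% to 40.4% in the other 5 libraries. Of the 16 genes of these groups, 5 reached 1 TPM in the naive cells and 8 in mES-Oct4GFP+. Their sums there were 22.72 and 33.45 TPM for Hoxc and 13.77 and 16.91 for Hoxb. For Hoxa they were only 0.89 and 3.04 TPM, and for Hoxd 0.52 and 1.69. Cdx1 and Cdx2, homeobox factors that act on Hox clusters in the tailbud, were highest in the same libraries. Cdx1 read 0.00, 0.14, 147.59, 0.73, 69.31, 0.00 and 0.62 TPM. Cdx2 read 1.45, 0.21, 10.57, 0.00, 16.26, 0.07 and 3.45. Of the 6 upstream and ParaHox factors (Cdx1, Cdx2, Cdx4, Pdx1, Gsx1, Gsx2), 2 were called higher and 1 lower in the naive cells than in 5C-Oct4GFP+. The shares of all genes tested were 10.0% and 17.5%. In mES-Oct4GFP- against mES-Oct4GFP+, 0 of the 6 were higher and 2 lower, beside 28.8% and 17.9% of all genes tested. Cdx4 stayed under 1 TPM in every library. The 6 markers of primed pluripotent cells summed to 52.1 TPM in mES-Oct4GFP+ and 54.9 in the naive cells, against 374.3 in 5C-Oct4GFP+. In the naive cells against 5C-Oct4GFP+, 1 of them was called higher and 5 lower, beside 10.0% and 17.5% of all genes tested. The higher one was T, with 6.93 TPM in mES-Oct4GFP+, 14.49 in the naive cells and 0.24 in 5C-Oct4GFP+. The part of these markers in the difference was not tested.

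**Figure D4:**
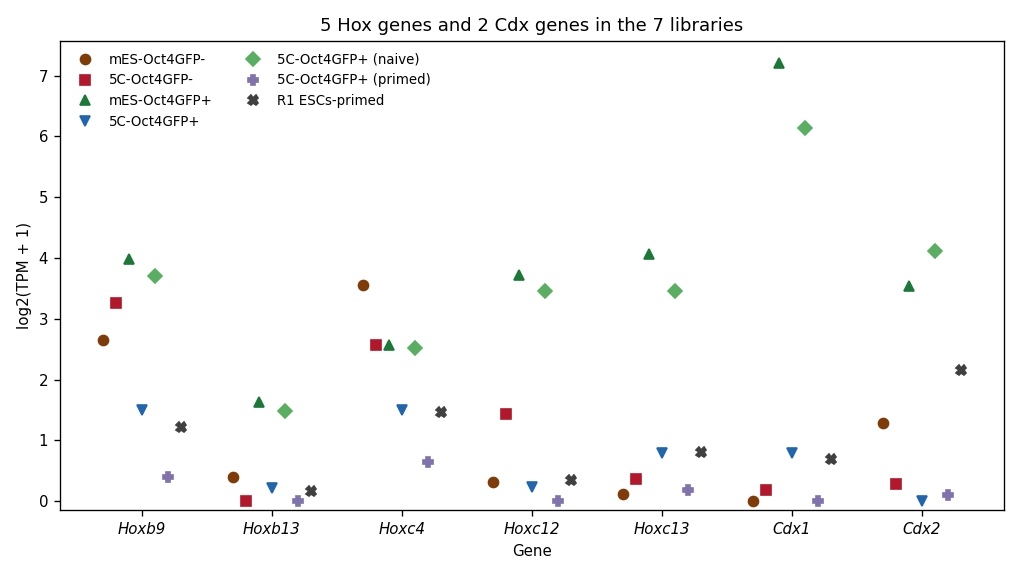
Level, as log2(TPM + 1), of 5 Hox genes called higher in the naive cells than in 5C-Oct4GFP+, and of Cdx1 and Cdx2, with 1 symbol per library. mES-Oct4GFP+ and the naive cells are the top pair for Hoxb9, Hoxb13, Hoxc12, Hoxc13, Cdx1 and Cdx2, while Hoxc4 is highest in mES-Oct4GFP-.

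Conversion in primed medium went with low Hox levels throughout. The primed 5C cells were also at passage 20, so medium and passage cannot be told apart against 5C-Oct4GFP+ at passage 0. Of 10 members tested, 0 were higher in the primed 5C cells than in 5C-Oct4GFP+ and 3 (Hoxa7, Hoxb2 and Hoxb9) lower, beside 13.7% and 16.1% of all genes tested. The lower genes numbered 0 with a minimum of 5 TPM, 1 with FPKM and 8 with a pseudocount of 0.1. The median difference was -0.22 on log2(TPM + 1), against 0.06 over all genes. Hoxb9 fell from 23 counts to 5, so that its level in 5C-Oct4GFP+ was 5.72-fold that in the primed cells (2.15 to 19.4). Against the naive cells, 0 of 10 members were higher and 7 lower in the primed 5C cells, beside 22.2% and 16.7% of all genes, and 3 were lower with a minimum of 5 TPM. Among them were Hoxb9, Hoxb13, Hoxc4, Hoxc11, Hoxc12 and Hoxc13. Hoxb9 was 37.4-fold higher in the naive cells (15.7 to 118.0), and Hoxc13 77.1-fold (20.4 to 629.0). Hoxc12 had no counts in the primed cells and was at least 20.0-fold lower there. The median difference over the 39 members was 0.0, against 0.14 over all genes. Only Hoxa9 (1.05 TPM) and Hoxc6 (1.27 TPM) reached 1 TPM in the primed 5C cells.

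The 2 primed cultures differed in Hox RNA, at low levels. Of 23 members tested, 18 were called lower in the primed 5C cells than in R1 ESCs-primed and 0 higher, beside 5.09% and 2.3% of all genes tested. With FPKM in place of TPM 6 were lower, and with a minimum of 5 TPM 2 were. The median difference was -0.9 on log2(TPM + 1), against -0.03 over all genes, and 37 of the 39 members had the lower value in the primed 5C cells. Hoxa9 had 6 counts against 23, and R1 ESCs-primed was 5.21-fold higher (2.07 to 15.7). Hoxc6 had 12 against 29 (4.07-fold, 2.02 to 8.79), Hoxb3 3 against 28 (15.5-fold, 4.81 to 80.0) and Hoxa10 3 against 24 (7.24-fold, 2.2 to 37.5). Hoxb3 shares 50.5% of its read-length stretches with Hoxb3os, which was given 5.55 counts in the primed 5C cells and 0.0 in R1 ESCs-primed. Its ratio therefore rests in part on how the reads were divided. The counting interval lay wholly past 2-fold for 11 members. The 18 genes spread over the clusters, 7 in Hoxa, 4 in Hoxb, 4 in Hoxc and 3 in Hoxd. All 10 fibroblast markers reached 1 TPM in both primed cultures, with sums of 85.2 in the 5C cells and 247.6 in R1 ESCs-primed. Col1a1 read 13.32 and 40.52 TPM and Prrx1 2.95 and 13.45 (both named after their values were seen), and no marker of the list was at 0. The study's methods name MEF feeders for the start of the primed R1 culture. The part of fibroblast RNA, from feeders or other cells, in the Hox difference was not tested.

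**Figure D5:**
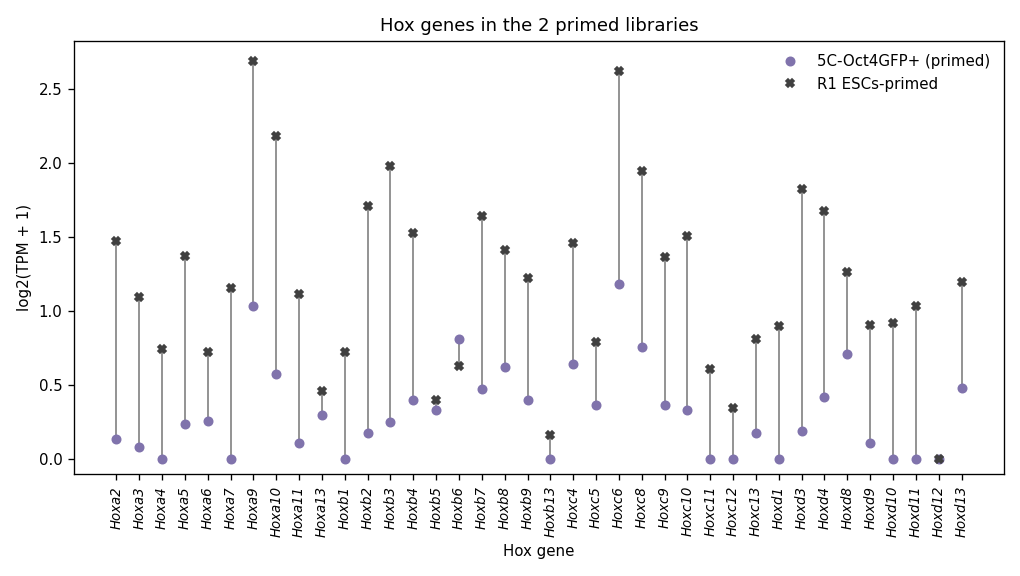
Level of each Hox gene, as log2(TPM + 1), in the primed 5C cells (circles) and R1 ESCs-primed (crosses), 1 library each, joined by a line per gene. The crosses lie above the circles for 36 of the 38 genes drawn, and the highest cross is Hoxa9 at 5.47 TPM.

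Genes that work with or on the Hox clusters were read from lists. The 9 cofactors of the Pbx, Meis and Pknox families, which bind DNA jointly with Hox proteins, summed to 230.4 and 236.0 TPM in mES-Oct4GFP- and 5C-Oct4GFP- and to 220.7 and 231.4 in the primed 5C cells and R1 ESCs-primed, but to between 87.0 and 112.3 in mES-Oct4GFP+, 5C-Oct4GFP+ and the naive cells. Of the 9, 6 were higher and 0 lower in the Oct4GFP- fraction of mES culture than in its Oct4GFP+ fraction, beside 28.8% and 17.9% of all genes tested, and 5 and 0 in 5C culture, beside 22.6% and 8.45%. The cofactor sum of the primed 5C cells was thus close to that of the Oct4GFP- cells, while their Hox sum was the lowest of the 7. Single cofactors behind these like sums went both ways. Meis2 read 0.68 TPM in the primed 5C cells, against 49.10 in mES-Oct4GFP- and 58.77 in 5C-Oct4GFP-. For Pbx2 the primed value was higher, 96.63 TPM against 65.24 and 42.69. Pbx2 had the highest level, 96.63 TPM in the primed 5C cells. On log2(TPM + 1), Meis3 differed most between the mES fractions, with 19.38 and 2.11 TPM, a ratio of 9.18 (4.97 to 18.8).

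The 12 polycomb and trithorax regulators, which silence or maintain Hox genes, all passed 1 TPM in every library. In the library order given above they summed to 537.1, 720.1, 1036.6, 828.0, 921.3, 695.3 and 698.3 TPM, highest in mES-Oct4GFP+. Suz12, a subunit of polycomb repressive complex 2, had the highest level, 238.97 TPM in mES-Oct4GFP+. Its partner Eed differed most between the mES fractions on log2(TPM + 1), with 42.44 and 160.05 TPM. Between mES-Oct4GFP- and mES-Oct4GFP+, 2 of the 12 were called higher and 3 lower, beside 28.8% and 17.9% of all genes tested. The 2 higher were Ring1, with 25.51 and 6.26 TPM, and Kat6a, with 23.79 and 11.10. Between 5C-Oct4GFP- and 5C-Oct4GFP+, 1 was higher and 2 lower, beside 22.6% and 8.45%. The higher one was Bmi1, with 55.24 and 8.99 TPM. In the primed 5C cells against 5C-Oct4GFP+, 1 of the 12 was called higher and 2 lower, beside 13.7% and 16.1% of all genes tested. Suz12 was among the lower ones, at 59.22 TPM, 2.92-fold below its level in 5C-Oct4GFP+ (2.75 to 3.09). The part of these regulators in the Hox levels was not tested.

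Noncoding RNAs of the clusters were highest together with the genes in part. The sum over 10 of them was 62.1 and 73.6 TPM in the Oct4GFP- fractions of mES and 5C culture, 65.2 in mES-Oct4GFP+ and between 2.4 and 11.2 in the other libraries. In 5C-Oct4GFP- against 5C-Oct4GFP+, 7 of the 10 were higher and 0 lower, beside 22.6% and 8.45% of all genes tested. In mES-Oct4GFP- against mES-Oct4GFP+, 5 were higher and 2 lower, beside 28.8% and 17.9%. Halr1, an RNA of the Hoxa cluster, had the highest level and, on log2(TPM + 1), the largest difference between the mES fractions, with 42.34 TPM in mES-Oct4GFP+ and 3.96 in mES-Oct4GFP-. In the naive cells it read 2.15. Of the 11 genes that flank the clusters, 2 were higher and 2 lower in mES-Oct4GFP- than in mES-Oct4GFP+, beside the same 28.8% and 17.9%. In 5C-Oct4GFP- against 5C-Oct4GFP+, 0 were higher and 1 lower, beside 22.6% and 8.45%. Calcoco2, an autophagy receptor near the Hoxb13 end of its cluster, had the highest level of the flanking genes and, between the mES fractions on log2(TPM + 1), the largest difference, with 1.53, 3.31, 293.38, 16.40, 141.84, 0.53 and 1.45 TPM.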

How the data were processed

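Illumina mRNA-seq libraries (TruSeq RNA kit, from extracted total RNA, 1 per group, no replicates) were quantified by the authors, and the submitters' processing notes name Bowtie, RSEM and mm10; their versions are not given in the sources used here. The authors deposited, per Ensembl gene, expected counts (RSEM's estimated reads, not normalized), TPM (counts over effective length as a share of the library's total) and FPKM. Each of the 7 tables holds 29267 genes. Gene symbols and coordinates came from GENCODE M21 (GRCm38, the same build as mm10).

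Differences were taken on log2(TPM + 1) from the deposited values, over the whole table. A call needed a 2-fold difference and 1 TPM in either library. Expected counts, rounded to integers, gave the ratios' exact 95% Clopper-Pearson intervals, for counting error only; with 1 library per group there is no test. Floors are 3 counts per library. Calls and intervals were tested on simulated data. This does not show how they hold for genes with few counts, such as Hoxc12 and Hoxb1. Intervals used scipy 1.17.1 and tables pandas 2.3.3 with numpy 2.4.6, under Python 3.11.15; plots used matplotlib 3.10.9.

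The genes named are the top 3 of each cluster by highest TPM, every member reaching 1 TPM in any library other than the 2 Oct4GFP- libraries, and every member at least 2-fold apart between those 2. For other lists, the gene with the highest level and that with the largest difference between the mES fractions are named. Members and lists were chosen with earlier results of these data known. Sequences came from GENCODE M21 and RefSeq (GRCm38.p6). Values and sequences of some genes are not reported here.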

Additional observations from a re-analysis of the deposited data

Results flagged for a closer look

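Hoxb9 was flagged because its single libraries differed in opposite directions in the 2 media: Oct4GFP- minus Oct4GFP+ was -1.33 on log2(TPM + 1) in mES medium and 1.75 in 5C medium. Hoxc12 did the same, with -3.42 and 1.2. Between media, 5C minus mES was 2.02 for Hoxc11 and 1.13 for Hoxc12 in the Oct4GFP- cells, and -1.13 and -3.49 in the Oct4GFP+ cells. In each case the 2 differences share libraries, the difference between them was not tested, and there is 1 library per group. Hoxc12 had 1 count in mES-Oct4GFP- and 1 in 5C-Oct4GFP+, and Hoxc11 had 1 in 5C-Oct4GFP+.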

How the results depend on the processing

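No paired analysis was possible because each group has 1 library, and no library could be left out for the same reason. Of 149 values recomputed with other settings, 112 stayed within 1.5-fold of the reported value (within that factor on the log2 scale for medians), 36 moved further and 1 changed sign; the cause was not tested beyond what each alternative sets by construction. With a pseudocount of 0.1 the median differences were 2.19 (mES fractions), 3.44 (5C fractions), -1.26 (5C-Oct4GFP+ against mES-Oct4GFP+), -0.93 (primed against 5C-Oct4GFP+) and -2.28 (primed 5C against R1 ESCs-primed), and the counts of lower genes were 5 (Oct4GFP- fractions of the media), 7 (naive against 5C-Oct4GFP+) and 8 (primed against 5C-Oct4GFP+), with 4 higher in 5C-Oct4GFP+ against mES-Oct4GFP+. With 5 TPM as the minimum, which leaves fewer genes tested, 14 were higher between the mES fractions, 0 higher and 4 lower between the Oct4GFP+ fractions, 3 higher and 0 lower in the naive cells against 5C-Oct4GFP+, 0 lower in the primed cells against 5C-Oct4GFP+, 3 lower against the naive cells and 2 lower against R1 ESCs-primed. With FPKM the median between the 5C fractions was 1.84; 0 were higher in 5C-Oct4GFP+ against mES-Oct4GFP+, 0 lower in the naive cells and 1 in the primed cells against 5C-Oct4GFP+, and 6 lower in the primed cells against R1 ESCs-primed; members at 1 or more were 3 in 5C-Oct4GFP+, 0 in the primed 5C cells and 10 in R1 ESCs-primed. Median-ratio scaling gave 5 lower between the Oct4GFP- fractions and 2 higher between the Oct4GFP+ fractions. Counting only intervals wholly past 2-fold gave 3 lower between the mES fractions, 1 lower between the Oct4GFP- fractions, 0 higher between the Oct4GFP+ fractions and 11 lower in the primed cells against R1 ESCs-primed. Members with 3 or more expected counts numbered 29 in mES-Oct4GFP+, 20 in 5C-Oct4GFP+, 16 in the naive cells, 17 in the primed 5C cells and 35 in R1 ESCs-primed. With members at 0 counts set to the TPM of 3 counts, the median of the naive cells against 5C-Oct4GFP+ changed sign, to 0.02. The shift of the all-gene median by median-ratio scaling was over 0.1 in 5C-Oct4GFP- against 5C-Oct4GFP+ (-0.15) and in the primed against the naive cells (-0.13). That scaling moved the share of higher among the Hox calls by over 10 points in 1 comparison, 5C-Oct4GFP- against mES-Oct4GFP-, from 75.0% to 64.3%. Depth limits the low members: at a TPM near 1 a member rests on a few counts.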
